A study of Mus musculus with 24 samples.

Results

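The genes Gm15083, Gm39465 and 4930447F24Rik are noncoding in the mouse annotation and were chosen by their drop in RNA in the cerebellum of SCA1 mice relative to WT mice. They are 3 of the 54232 genes in the count files, and all 3 were among the 22502 genes, of which 3046 were annotated as long noncoding, with enough counts for testing. Because the SCA1 and WT counts chose them, their drop in SCA1 is given here as a description without a test. Comparisons of SCA1 S776A and S776A double mice with the same WT or SCA1 mice are descriptions for these genes too. For these 3 genes p-values are given only for the comparison of the S776A genotypes with each other and for the WT S776A homozygous mice. Other p-values are those of the genes that lie beside these 3 and of Atxn1. The neighbors were taken by position and not by their own values. Their comparisons of SCA1 with WT still use the mice that chose the 3 genes, and some neighbors overlap these genes.

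Cerebella were taken at 6 weeks of age from 24 mice, and RNA-seq fragments were counted per gene. The 8 WT mice carried the mouse 2Q allele of Atxn1 on both chromosomes. The 4 SCA1 mice (Atxn1_154Q/2Q) were heterozygous knockins with an expanded glutamine tract in 1 copy of the mouse gene, which is driven by its own promoter and not by that of a transgene. The 4 SCA1 S776A mice carried the S776A change, made by CRISPR, on the expanded allele alone, the 4 S776A double mice carried it on the expanded and on the 2Q allele, and the 4 WT S776A homozygous mice carried it on both of their 2Q alleles. The lines were on a C57BL/6J background, and the founder behind each mouse is not given in the labels. The libraries fell into 2 batches that were inferred from mapping shares: batch 1 held 4 WT mice and all SCA1, SCA1 S776A and S776A double mice, and batch 2 held the other 4 WT mice and all WT S776A homozygous mice. Values of the groups are therefore compared within a batch. Replicate numbers name mice within a group and have no order.

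Ataxin-1 is a nuclear protein that acts with the repressor Capicua, and expansion of its glutamine tract causes spinocerebellar ataxia type 1, in which Purkinje cells of the cerebellum are lost. Phosphorylation of a serine, S776, stabilizes the protein, and the alanine of S776A cannot be phosphorylated. Long noncoding RNAs are transcripts, often spliced, without a long reading frame. Many are transcribed antisense to a coding gene or within its introns, some act on genes near their own locus, and for most no function is known. No function is assumed here for the 3 genes.

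Their positions in GRCm38 differ in how they meet other genes. Gm15083 (ENSMUSG00000087083) lies at chr6:114004789-114052265 on the plus strand and is annotated as antisense, with 3 exons that sum to 1413 bases. It crosses the 5′ end of Atp2b2 on the opposite strand, which encodes a plasma membrane calcium pump that is abundant in Purkinje cells. Only its exon of 79 bases, 5.59% of its exonic length, lies inside Atp2b2, and no exonic base is shared. Gm39465 (ENSMUSG00000111389) lies at chr9:122019528-122051463 on the minus strand and is an intergenic long noncoding RNA with an exon of 9561 bases and one of 252 bases. All 252 bases of its 5′ exon are also exonic in Gm39464, another noncoding gene on the plus strand. 4930447F24Rik (ENSMUSG00000102224) lies at chr9:108133718-108138567 on the plus strand, has 4 exons that sum to 1503 bases, and sits whole inside an intron of Bsn on the opposite strand. Bsn encodes Bassoon, a scaffold of the presynaptic active zone, and its nearest exon is 619 bases away.

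The sequences around the most upstream RefSeq start of each gene are shown because ataxin-1 acts with a DNA-binding partner whose octamer could be searched for in them. Each is 300 bases of GRCm38.p6 from RefSeq, given 5′ to 3′ on the strand of the gene, and capitals mark the last 50 bases, which run from the start into the transcript.
Gm15083, plus strand, chr6:114004506-114004805: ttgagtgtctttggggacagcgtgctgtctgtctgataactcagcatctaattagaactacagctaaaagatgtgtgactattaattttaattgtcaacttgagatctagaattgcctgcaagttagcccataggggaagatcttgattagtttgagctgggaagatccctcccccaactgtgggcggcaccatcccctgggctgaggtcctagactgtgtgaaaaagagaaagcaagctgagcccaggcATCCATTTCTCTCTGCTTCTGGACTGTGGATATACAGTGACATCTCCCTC
Gm39465, minus strand, chr9:122051459-122051758: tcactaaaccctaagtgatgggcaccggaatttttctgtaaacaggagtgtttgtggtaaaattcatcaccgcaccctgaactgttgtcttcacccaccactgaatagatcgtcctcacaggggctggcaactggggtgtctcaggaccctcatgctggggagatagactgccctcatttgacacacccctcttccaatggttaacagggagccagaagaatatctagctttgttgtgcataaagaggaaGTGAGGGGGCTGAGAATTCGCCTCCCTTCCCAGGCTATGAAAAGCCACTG
4930447F24Rik, plus strand, chr9:108133468-108133767: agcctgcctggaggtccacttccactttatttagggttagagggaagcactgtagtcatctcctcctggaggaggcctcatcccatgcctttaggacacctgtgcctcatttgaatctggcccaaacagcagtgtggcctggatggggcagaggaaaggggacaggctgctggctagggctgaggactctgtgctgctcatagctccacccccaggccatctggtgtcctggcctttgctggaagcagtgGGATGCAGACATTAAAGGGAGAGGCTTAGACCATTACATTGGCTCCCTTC

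The RefSeq start lies 33 bases upstream of the GENCODE start for Gm15083, 45 bases upstream for Gm39465, and 0 bases from it for 4930447F24Rik. The octamers known for Capicua were searched as TGAATGAA, TGAATGGA, TCAATGAA and TCAATGGA on both strands, and a promoter with any match was counted once. None of the 3 sequences holds one, nor do the second RefSeq starts of Gm15083 and 4930447F24Rik, whereas 3.84% of the 32851 promoters of this length do. The promoter of Bsn holds 1 match, and those of Atp2b2 and Gm39464 hold 0. The absence says only that these letters are not in these windows. The 3 sequences hold few CpG dinucleotides, with 2 in Gm15083, 4 in Gm39465 and 0 in 4930447F24Rik against a median of 7 over all promoters. The most upstream promoter of Atp2b2 holds 27 and that of Bsn 38.

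The libraries held 62163600 to 88430180 fragments on genes, so the 3 genes, with 69 to 928 fragments each per library, were counted well above a floor of 3. Cerebellar markers were present in every mouse. Atxn1 itself was between 47.9 and 69.5 CPM (library-scaled counts, by TMM) in all 24 mice and was called in no comparison. Relative to WT its log2 fold change was 0.21 in SCA1, 0.27 in SCA1 S776A and 0.29 in S776A double mice (SE 0.08 each). The unadjusted p in edgeR was 0.018, 0.0032 and 0.0019, and the adjusted p was 0.453, 0.870 and 0.398. Every SCA1 and SCA1 S776A mouse lay above every WT mouse of batch 1. WT mice of batch 2, at 47.9 to 62.0 CPM, overlapped both groups. Choroid plexus markers (Ttr, Kl, Folr1 and Aqp1) varied between mice, and their summed level was under 300 CPM in 6 mice, of which 2 were WT mice of batch 1, 1 was SCA1 S776A, 2 were S776A double and 1 was WT S776A homozygous, while SCA1 mice had 870 to 5044 CPM. By Xist, S776A double replicate 1 was the only female in batch 1, and batch 2 held 2 females in each genotype.

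Gm15083 was the least abundant of the 3 genes by CPM and its counts separated SCA1 from every other group. The 4 WT mice of batch 1 had 254, 200, 208 and 189 fragments. The 4 SCA1 mice had 69, 76, 88 and 87 fragments. Every SCA1 mouse was below every WT mouse, so the groups did not overlap. As CPM, the WT mice of batch 1 had 3.15 ± 0.48 (SD, n = 4) and the SCA1 mice 1.10 ± 0.14 (SD, n = 4), a log2 fold change of -1.52 (SE 0.17), or 34.8% of the WT mean.

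The S776A change on the expanded allele went with a mean Gm15083 level nearer to that of WT than to that of SCA1. The SCA1 S776A mice had 2.91, 2.06, 2.44 and 3.14 CPM. The S776A double mice had 2.17, 2.20, 2.84 and 2.28 CPM. Both groups lay wholly above the SCA1 mice, whose highest value was 1.25 CPM, and both overlapped the WT range of 2.60 to 3.78 CPM. Among S776A double mice only the mouse at 2.84 CPM lay in that range, and the others lay below it. Relative to WT of batch 1 the log2 fold change was -0.26 (SE 0.16) in SCA1 S776A and -0.41 (SE 0.16) in S776A double mice. Relative to SCA1 it was 1.27 (SE 0.17) and 1.11 (SE 0.17), and these comparisons share the WT or the SCA1 mice that chose the gene.

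Gm39465 showed the deepest drop of the 3 genes. The 4 WT mice of batch 1 had 11.1, 11.2, 9.42 and 11.5 CPM. The 4 SCA1 mice had 2.14, 2.25, 3.45 and 2.95 CPM. The highest SCA1 mouse was thus well below the lowest WT mouse. The mean was 10.8 ± 0.94 (SD, n = 4) in WT and 2.699 ± 0.62 (SD, n = 4) in SCA1, a log2 fold change of -2.003 (SE 0.24), or 25.0% of the WT mean.

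Gm39465 also spread most widely among mice of the S776A genotypes. The SCA1 S776A mice had 6.32, 6.77, 10.1 and 3.98 CPM. The S776A double mice had 4.40, 3.83, 4.72 and 8.29 CPM. In both groups 1 mouse stood well above the others, at 10.1 CPM in SCA1 S776A replicate 3 and 8.29 CPM in S776A double replicate 4, and all 8 mice were above the highest SCA1 mouse at 3.45 CPM. SCA1 S776A replicate 3 lay within the WT range of batch 1, from 9.42 to 11.5 CPM, while every S776A double mouse lay below it. The log2 fold change relative to WT was -0.67 (SE 0.23) in SCA1 S776A and -1.03 (SE 0.23) in S776A double mice, and relative to SCA1 it was 1.33 (SE 0.24) and 0.98 (SE 0.24).

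4930447F24Rik was the most abundant of the 3 by CPM. The 4 WT mice of batch 1 had 818, 887, 832 and 928 fragments. The 4 SCA1 mice had 497, 405, 402 and 465 fragments, so that these groups did not overlap either. The CPM was 12.8 ± 0.59 (SD, n = 4) in WT and 6.05 ± 0.68 (SD, n = 4) in SCA1, a log2 fold change of -1.08 (SE 0.12), or 47.3% of the WT mean.

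In mean CPM, 4930447F24Rik was nearer to SCA1 than to WT of batch 1 in both S776A groups on the expanded background. The mean of Gm39465 was nearer to SCA1 in S776A double mice as well (5.31 CPM, beside 2.699 in SCA1 and 10.8 in WT). The SCA1 S776A mice had 8.32, 6.57, 8.64 and 6.51 CPM. The S776A double mice had 6.03, 6.77, 6.44 and 8.48 CPM. All 8 mice were below the lowest WT mouse of batch 1 at 12.2 CPM, and both groups overlapped the SCA1 range of 5.35 to 6.92 CPM. The log2 fold change relative to WT was -0.77 (SE 0.12) in SCA1 S776A and -0.88 (SE 0.12) in S776A double mice, and relative to SCA1 it was 0.31 (SE 0.12) and 0.20 (SE 0.12).

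**Figure D1:**
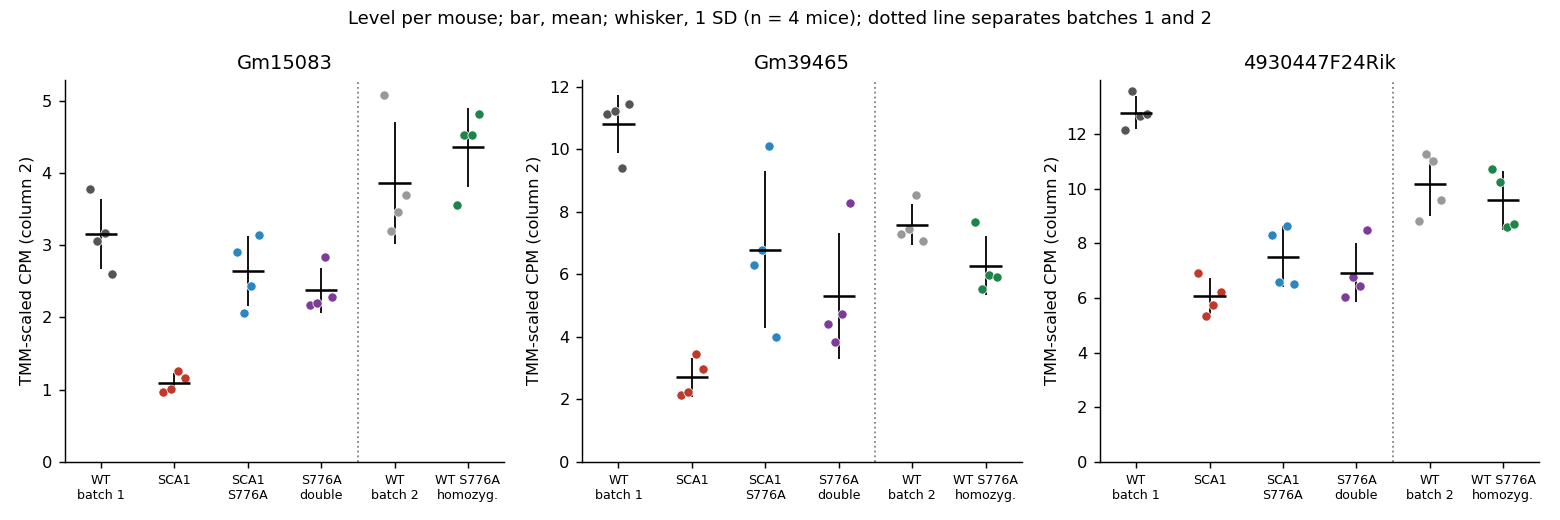
Level of each gene per mouse in TMM-scaled CPM on the vertical axis, by genotype and batch on the horizontal axis, with the group mean as a bar and 1 SD as a whisker (n = 4). The SCA1 mice are the lowest group in all 3 panels, and SCA1 S776A and S776A double mice lie apart from them for Gm15083 and Gm39465 and overlap them for 4930447F24Rik.

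Set against its own change in SCA1, the change that remained differed between the genes as a description. In SCA1 S776A mice 16.8% of the log2 change of SCA1 remained for Gm15083, 33.4% for Gm39465 and 71.1% for 4930447F24Rik. In S776A double mice the shares were 26.9%, 51.2% and 81.9%. The order of the genes was the same in both groups, which share the WT and SCA1 mice of the ratio. A test of the difference between genes was not made, since those mice chose the genes.

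Calls come from edgeR's quasi-likelihood test over all tested genes, with a log2 fold change past 0.5 in either direction and a p adjusted by Benjamini-Hochberg of less than 0.01. The count of members called lower in SCA1 relative to WT was 3 of 3, where 0.138% of all tested genes were called lower and 0.173% in either direction, and this count follows from the choice. The counts against WT or SCA1 in the rest of this paragraph use the mice that chose the genes as the reference, so they are descriptions, and nothing is read from them against the shares of all genes. In SCA1 S776A mice 1 of 3, 4930447F24Rik, was called lower than WT, where 0.0133% of tested genes were. This call was lost in 13 of the 24 refits that left out 1 mouse, while its log2 fold change stayed between -0.84 and -0.71. The mice whose omission ended it were WT replicates 1, 2, 3, 4, 6, 7 and 8, SCA1 replicate 3, SCA1 S776A replicates 1, 2, 3 and 4, and WT S776A homozygous replicate 3. In S776A double mice the same gene was the 1 of 3 called lower than WT, where 0.0222% of tested genes were, and Gm39465 was called as well when S776A double replicate 4, the mouse with its highest level, was left out. Relative to SCA1, Gm15083 was the 1 of 3 called higher in SCA1 S776A mice, and 0.00444% of tested genes were called. This call was lost without SCA1 replicate 1 or SCA1 replicate 2, and Gm39465 was called in addition without SCA1 S776A replicate 4 or S776A double replicate 4. In S776A double mice 0 of 3 were called relative to SCA1, where 0% of tested genes were, and Gm15083 was called in 8 of 24 refits, which left out WT replicate 1, 4, 5 or 6, SCA1 S776A replicate 2 or 4, or WT S776A homozygous replicate 1 or 4.

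**Figure D2:**
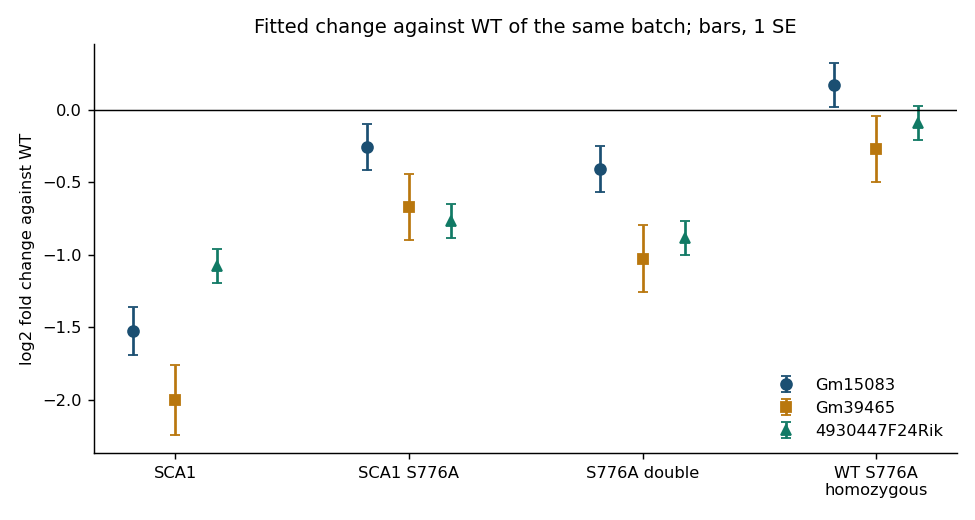
Fitted log2 fold change of each gene relative to WT mice of the same batch on the vertical axis, by genotype on the horizontal axis, with 1 SE as bars. In SCA1 the values run from -2.003 for Gm39465 to -1.08 for 4930447F24Rik, and in WT S776A homozygous mice all 3 lie between -0.27 and 0.17.

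The difference between the S776A groups on the expanded background did not use the values that chose the genes and was tested. S776A double mice relative to SCA1 S776A mice gave a log2 fold change of -0.15 (SE 0.16, 95% interval -0.48 to 0.17) for Gm15083. The value was -0.36 (SE 0.23, 95% interval -0.83 to 0.12) for Gm39465. It was -0.12 (SE 0.12, 95% interval -0.36 to 0.13) for 4930447F24Rik. No difference was called, with an adjusted p of 1.00 for each gene in edgeR, 0 of 3 at an unadjusted p under 0.05, where 2.96% of all tested genes were, and 0 of 3 called in DESeq2. The value for Gm39465 ran from -0.66 without S776A double replicate 4 to -0.10 without SCA1 S776A replicate 3 when 1 mouse was left out, and was -0.096 without the mice low in choroid plexus. For Gm15083 and 4930447F24Rik the ranges were -0.26 to -0.061 and -0.23 to -0.045.

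The WT S776A homozygous mice carried S776A without the expanded allele, on both 2Q alleles, where S776A double mice differ from SCA1 S776A mice by 1. Gm15083 had 3.56, 4.52, 4.52 and 4.81 CPM in these mice. The 4 WT mice of batch 2 had 5.08, 3.19, 3.46 and 3.70 CPM. The groups overlapped, and the log2 fold change was 0.17 (SE 0.15, 95% interval -0.14 to 0.49, adjusted p = 0.659 in edgeR).

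For Gm39465 the WT S776A homozygous mice had 7.67, 5.55, 5.99 and 5.93 CPM. The WT mice of batch 2 had 7.29, 7.46, 8.56 and 7.07 CPM. Of the homozygous mice 3 lay below all 4 WT mice and 1 lay among them, and the log2 fold change was -0.27 (SE 0.23, 95% interval -0.74 to 0.20, adjusted p = 0.643 in edgeR). 4930447F24Rik had 10.7, 10.3, 8.58 and 8.70 CPM in the homozygous mice and 8.83, 11.3, 11.0 and 9.60 CPM in WT, a log2 fold change of -0.09 (SE 0.12, 95% interval -0.33 to 0.15, adjusted p = 0.782 in edgeR). Of the 3 genes 0 were called, 0 had an unadjusted p under 0.05 and 0 were called in DESeq2, while 9.98% of all tested genes had an unadjusted p under 0.05 in this comparison.

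An interaction set these 2 differences against each other, as the S776A double minus SCA1 S776A difference less the WT S776A homozygous minus WT difference. It was -0.33 on the log2 scale (SE 0.22, 95% interval -0.78 to 0.12, adjusted p = 0.997 in edgeR) for Gm15083. It was -0.08 (SE 0.32, adjusted p = 0.997 in edgeR) for Gm39465 and -0.03 (SE 0.17, adjusted p = 0.998 in edgeR) for 4930447F24Rik. No member had an unadjusted p under 0.05, where 2.88% of all tested genes did. The contrast spans both batches, and it sets a change of 1 2Q allele against a change of both, so the number of alleles and the expanded allele cannot be told apart in it. For the last 2 genes its sign turned in some of the other fits.

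The order of the groups by mean CPM differed between the genes. For Gm15083 it ran from WT S776A homozygous (4.35) over WT of batch 2 (3.86), WT of batch 1 (3.15), SCA1 S776A (2.64) and S776A double (2.37) to SCA1 (1.10), and each group overlapped the next in range except SCA1. For Gm39465 WT of batch 1 (10.8) came before WT of batch 2 (7.59), with no overlap, followed by SCA1 S776A (6.80), WT S776A homozygous (6.28) and S776A double (5.31) with overlapping ranges, and then SCA1 (2.699) apart from them. For 4930447F24Rik WT of batch 1 (12.8) was again apart from WT of batch 2 (10.2), and the groups from there over WT S776A homozygous (9.57), SCA1 S776A (7.51) and S776A double (6.93) to SCA1 (6.05) each overlapped the next. WT of batch 2 stood at 122% of WT of batch 1 for Gm15083, 70.2% for Gm39465 and 79.6% for 4930447F24Rik. For Gm39465 the gap between batches thus exceeded that between genotypes within batch 2.

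Levels between the genes can be compared only per length of exon. In WT mice of batch 1 the level per kilobase was 8.51 ± 0.39 CPM for 4930447F24Rik, 2.23 ± 0.34 CPM for Gm15083 and 1.10 ± 0.10 CPM for Gm39465 (SD, n = 4). These levels were above those of 98.2%, 88.9% and 78.5% of the 3046 noncoding genes tested, whose median was 0.341 CPM per kilobase. The drop was therefore measured on genes that are well expressed for their class.

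Of the 3046 noncoding genes tested, 7 were called lower and 0 higher in SCA1 relative to WT, or 0.230% lower. Of 15840 protein-coding genes, 24 (0.152%) were called lower and 8 (0.0505%) higher. The other 4 noncoding genes had smaller log2 fold changes than the 3 described here, from -0.94 for A330076C08Rik and -0.82 for Mirt1 to -0.73 for Gm5083 and -0.66 for Gm13944. A330076C08Rik and Gm5083 lie on chromosome 13 at 1333 and 1425 kb from Atxn1. In SCA1 S776A mice the log2 fold changes were -0.87 for A330076C08Rik and -0.51 for Gm5083. They were -0.19 for Mirt1 and -0.28 for Gm13944, and -0.77 for 4930447F24Rik.

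The count files give each gene 3 columns, in which column 2 ignores strand and columns 3 and 4 count fragments of either orientation. The sums of columns 3 and 4 over all genes differed by a ratio of 0.9995 to 1.0035 per library, so over the whole library strand was not kept, and a transcript cannot be told from one on the opposite strand. For Gm15083 column 3 held 51.6% of the strand-resolved fragments in WT of batch 1 (Wilson 95% interval 48.2 to 54.9%) and 45.6% in SCA1 (40.3 to 51.1%). For 4930447F24Rik the shares were 47.4% (45.7 to 49.0%) and 50.1% (47.8 to 52.5%). The share for Gm15083 was lowest in S776A double mice, at 44.6% (41.1 to 48.2%). The intervals cover counting error only.

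The drop in SCA1 was present in each column. Gm15083 had a log2 fold change of -1.69 (SE 0.18) in column 3 and -1.35 (SE 0.20) in column 4. Gm39465 had -2.15 (SE 0.25) and -1.93 (SE 0.23). 4930447F24Rik had -0.98 (SE 0.14) and -1.15 (SE 0.12). Among the 3 genes and the comparisons with WT, the largest gap between columns was that of Gm15083 in S776A double mice, at -0.60 (SE 0.16) in column 3 and -0.21 (SE 0.18) in column 4, and the columns together gave -0.41.

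**Figure D3:**
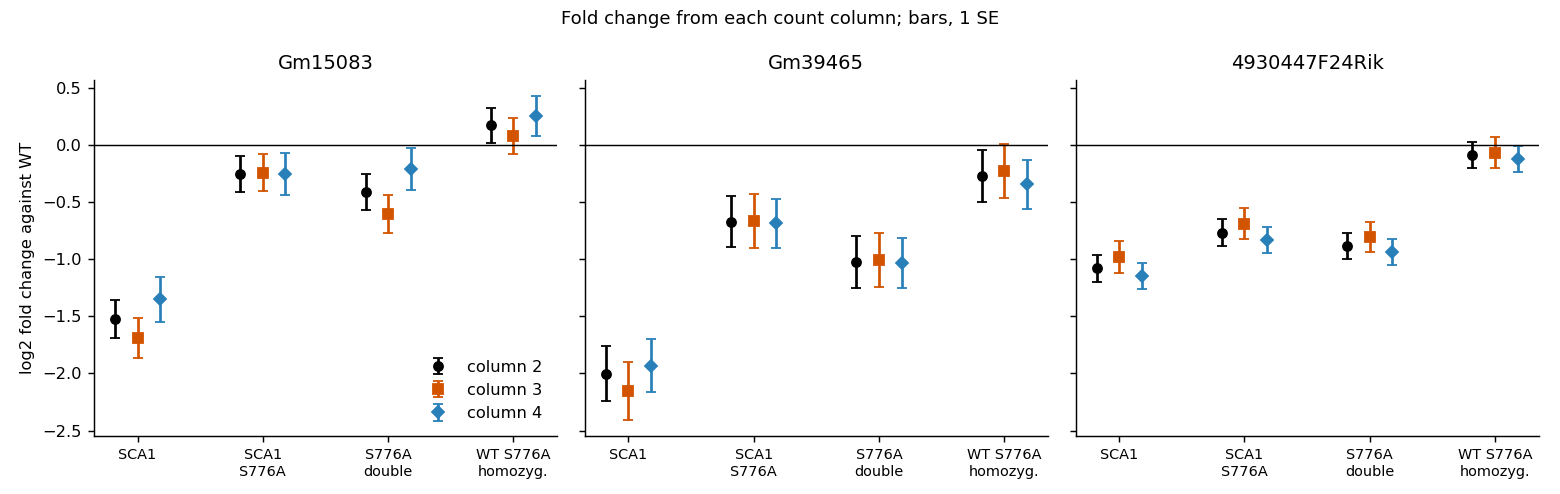
Log2 fold change relative to WT on the vertical axis, by genotype on the horizontal axis, computed from column 2, column 3 and column 4 of the count files, with 1 SE as bars. All 3 columns give values below 0 in SCA1 for each gene, and the columns of Gm15083 lie farthest apart in S776A double mice.

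Fragments in bases that opposite genes share are left out of column 2 and return in columns 3 and 4, so the excess of columns 3 and 4 over column 2 counts them. For Gm15083 the excess was 0 in every mouse, and for 4930447F24Rik it was at most 5 fragments. For Gm39465 it was 42 to 72 fragments in WT mice of batch 1 and 5 to 13 in SCA1 mice, so the shared exon with Gm39464 carried fewer fragments in SCA1 as well. These fragments could come from either gene and are not in the values of Gm39465 given above.

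Around the 3 genes 150 other genes of the count files lie within 500 kb, of which 104 could be tested. In SCA1 relative to WT 0 of the 104 were called in edgeR. At an unadjusted p under 0.05, 8 were lower and 0 higher, or 7.69% lower where 4.32% of all tested genes were and 8.25% were in either direction. Their median log2 fold change was -0.04 against 0.00 for all tested genes. Within 100 kb, 23 neighbors could be tested, of which 7 (30.4%) were lower at an unadjusted p under 0.05 and 0 higher. These SCA1 counts use the mice that chose the 3 genes and include neighbors that overlap them, so they are not independent of the choice. DESeq2 with batch called 0, and ComBat-seq followed by DESeq2 called 1, Gm47117. In SCA1 S776A and S776A double mice relative to WT, 0 of 104 were called in either, with 3 and 7 at an unadjusted p under 0.05, where 3.93% and 6.93% of all tested genes were.

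The neighborhood of Gm39465 held the neighbors with the deepest drop. Gm39464, which shares its 5′ exon, had 34, 27, 22 and 33 fragments in WT mice of batch 1. It had 6, 1, 13 and 9 in SCA1 mice, all below the WT mice of batch 1. WT mice of batch 2, with 9, 12, 16 and 4 fragments, overlapped the SCA1 counts. The log2 fold change in SCA1 was -2.08 (SE 0.54, adjusted p = 0.105 in edgeR), so Gm39464 was not called at these low counts. In the strand columns, which hold its shared exon, the log2 fold change was -2.52 (SE 0.39) in column 3 and -2.47 (SE 0.41) in column 4, and it was called in both. In WT mice of batch 1 these columns held 235 fragments beyond the 116 of column 2. Those may come from Gm39465, so both calls are not separate from the gene that was chosen.

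Gm47117, a noncoding gene 7.39 kb from the 3′ end of Gm39465 and on the same strand, had 41, 43, 24 and 36 fragments in WT mice of batch 1. It had 12, 4, 12 and 10 in SCA1 mice, again with no overlap. The log2 fold change was -2.01 (SE 0.40, adjusted p = 0.0152 in edgeR), just outside the threshold, and Gm47117 passed it without SCA1 S776A replicate 4, S776A double replicate 1 or WT S776A homozygous replicate 4. In SCA1 S776A mice it was -1.15 (SE 0.37, adjusted p = 0.941) and in S776A double mice -1.20 (SE 0.37, adjusted p = 0.471 in edgeR). Both genes had a log2 fold change near that of Gm39465 with far fewer fragments.

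The mice with the highest level of Gm39465 in the S776A groups were also high in these neighbors. SCA1 S776A replicate 3, with 783 fragments of Gm39465, had 41 of Gm39464 and 23 of Gm47117, the highest counts of its group for all 3 genes. Scaled to library size, Gm47117 was not highest there, at 0.297 CPM beside 0.309 CPM in SCA1 S776A replicate 2. S776A double replicate 4, with 647 fragments of Gm39465, had 28 of Gm39464, the highest of its group, and 24 of Gm47117, where replicate 3 had 25.

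**Figure D4:**
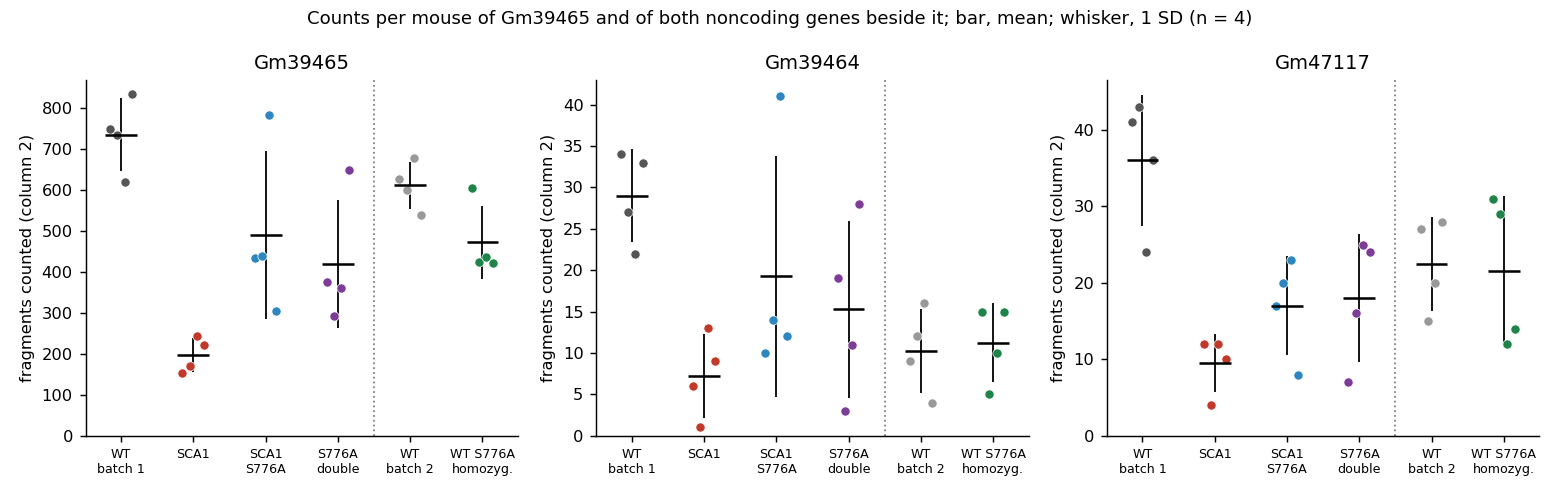
Fragments counted per mouse in column 2 on the vertical axis for Gm39465, for Gm39464 that shares its 5′ exon and for Gm47117 beyond its 3′ end, by genotype and batch on the horizontal axis, with the mean as a bar and 1 SD as a whisker (n = 4). The 3 genes are lowest on average in the SCA1 mice, and SCA1 S776A replicate 3 has the highest count of its group in each panel. The counts are not scaled to library size.

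Coding genes on either side of Gm39465 changed less. Snrk, which encodes a kinase of the SNF1 family and lies 65.8 kb away, had a log2 fold change of -0.27 (SE 0.08, adjusted p = 0.225 in edgeR) in SCA1. With 4632418H02Rik, named after its values were seen, at -0.58 (SE 0.17, adjusted p = 0.212 in edgeR) and 75.8 kb away, Snrk, Gm39464 and Gm47117 were the 4 neighbors of Gm39465 within 500 kb that had an unadjusted p under 0.05. All 4 were lower, of 27 tested (14.8%), where 4.32% of all tested genes were lower and 8.25% were in either direction. Gm39464 shares an exon with Gm39465, and the same mice chose Gm39465, so this count is a description.

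Atp2b2, opposite to Gm15083, is far more abundant than it. It had 980, 877, 868 and 860 CPM in WT mice of batch 1. It had 716, 747, 666 and 636 CPM in SCA1 mice, which lay below all of the WT mice. The log2 fold change was -0.37 (SE 0.13, adjusted p = 0.373 in edgeR), which was not called, beside -1.52 for Gm15083. The nearest tested genes beyond, Gm15082 at 64.6 kb and Slc6a11, a GABA transporter, at 79.0 kb, had -0.64 (SE 0.44, adjusted p = 0.770) and -0.04 (SE 0.12, adjusted p = 0.951 in edgeR).

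Bsn, around 4930447F24Rik, had 410, 419, 404 and 388 CPM in WT mice of batch 1. It had 354, 358, 317 and 259 CPM in SCA1 mice, below all WT mice of batch 1. WT mice of batch 2, at 196 to 281 CPM, overlapped SCA1. The gap between WT batches thus exceeded that between SCA1 and WT of batch 1. The log2 fold change in SCA1 was -0.33 (SE 0.25, adjusted p = 0.792 in edgeR), not called, beside -1.08 for 4930447F24Rik. The nearest tested genes, Gm37201 at 21.7 kb and Gm47303 at 30.5 kb, had -0.02 (SE 0.33, adjusted p = 0.993) and -0.19 (SE 0.37, adjusted p = 0.926 in edgeR). Since strand was not kept, fragments from unspliced Bsn RNA that fall on exons of 4930447F24Rik are counted to it, and their part in its level was not tested.

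In the WT S776A homozygous mice Atp2b2 and Gm15083 differed in which mice were low, whereas Bsn and 4930447F24Rik were lowest in the same mice. Replicates 3 and 4 had 693 and 516 CPM of Atp2b2 where the other 2 had 933 and 977, and 148 and 82.5 CPM of Bsn where the other 2 had 268 and 268. These mice also had the highest shares of mitochondrial fragments of all 24, at 4.82% and 6.73%. Their Gm15083 levels of 4.52 and 4.81 CPM were at the top of the group, and their 4930447F24Rik levels of 8.58 and 8.70 CPM were its lowest.

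**Figure D5:**
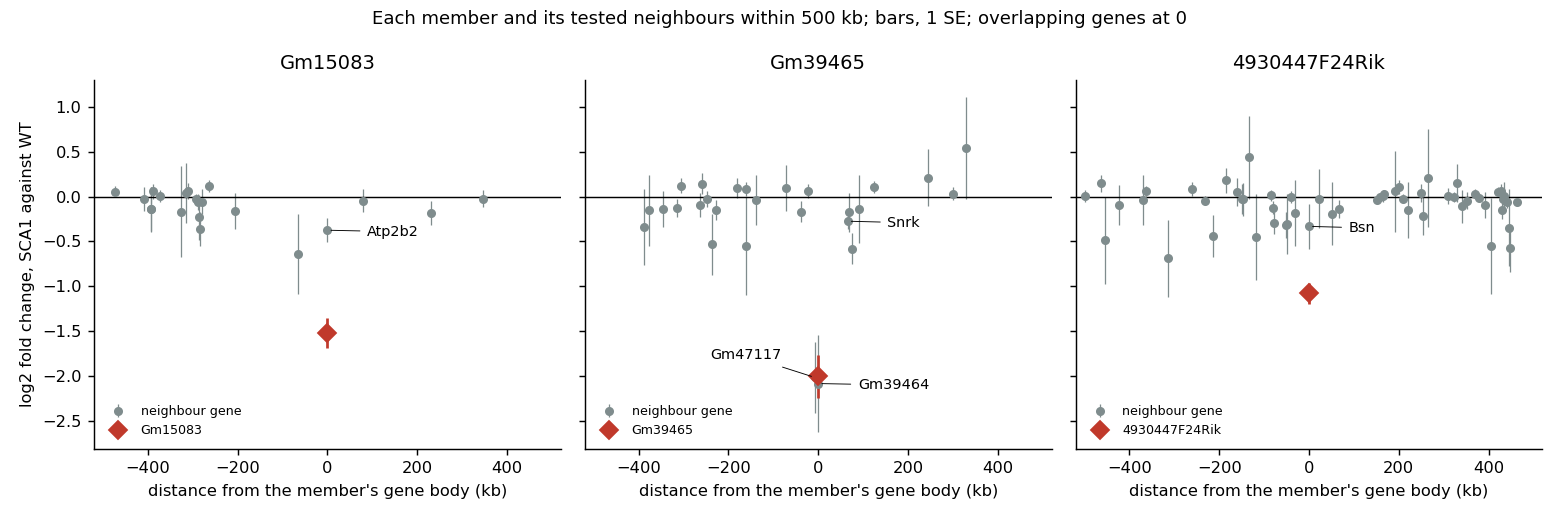
Log2 fold change in SCA1 relative to WT with 1 SE on the vertical axis, for each of the 3 genes (diamonds) and its tested neighbors within 500 kb (circles), by distance from the gene body in kb on the horizontal axis, with lower coordinates to the left. Gm39464 and Gm47117 lie at the level of Gm39465 near -2, and the other neighbors lie between -0.69 and 0.54.

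Marker levels of cerebellar cells moved with the drop in part. The summed level of 4 Purkinje cell markers (Calb1, Pcp2, Car8 and Itpr1) was 4754 to 5350.3 CPM in SCA1 mice and 6319.6 to 7302 CPM in WT mice of batch 1, without overlap. It was 5341 to 6231 CPM in SCA1 S776A mice, also wholly below WT, and 5184 to 7109.6 CPM in S776A double mice, which overlapped WT. In batch 2 it was 5269 to 6317 CPM in WT and 5034 to 5592 CPM in WT S776A homozygous mice, and both ranges overlapped that of SCA1. All 4 markers had a log2 fold change below 0 in SCA1, from -0.48 to -0.25, none was called, and none was at 0 in any mouse. In whole cerebellum fewer cells of a type and less RNA per cell cannot be told apart. The sum of 4 granule cell markers (Gabra6, Neurod1, Cbln3 and Zic1) was 3288 to 4022 CPM in SCA1 and 3823 to 3934 CPM in WT. The part of these levels in the drop of the 3 genes was not tested. The log2 fold changes of the 3 genes in SCA1 were -1.39 (SE 0.20), -1.95 (SE 0.27) and -1.07 (SE 0.14) for Gm15083, Gm39465 and 4930447F24Rik when the 6 mice low in choroid plexus were left out. Without those mice 4930447F24Rik was no longer called in SCA1 S776A or S776A double mice relative to WT, at -0.81 (SE 0.15) and -0.77 (SE 0.17), and Gm15083 no longer in SCA1 S776A relative to SCA1, at 1.22 (SE 0.18).

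Genes with the most similar pattern over the 16 mice of batch 1 were found by the root mean square difference of log2 CPM, each gene centered on its mean. These mice include those that chose the 3 genes, so the list is a description. For 4930447F24Rik they were Rasal1, a GTPase-activating protein for Ras, at a difference of 0.165, Prom2 at 0.175 and Igfbp5, an insulin-like growth factor binding protein, at 0.186. For Gm15083 they were Mdfi at 0.358, Otoa at 0.361 and D930020B18Rik at 0.374. For Gm39465 they were Car9, a carbonic anhydrase, at 0.377, Kcnh3, a voltage-gated potassium channel, at 0.417 and Myo15, an unconventional myosin, at 0.428.

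Among the 3 noncoding genes themselves the differences were 0.460 between Gm15083 and 4930447F24Rik, 0.488 between Gm15083 and Gm39465, and 0.489 between Gm39465 and 4930447F24Rik. The lists were chosen for the smallest differences, so the larger values here follow from that choice and are a description. For Rasal1, for example, the log2 fold change was -1.03 in SCA1, -0.54 in SCA1 S776A and -0.83 in S776A double mice, set beside -1.08, -0.77 and -0.88 for 4930447F24Rik. Mdfi had -0.66, -0.06 and -0.25, set beside -1.52, -0.26 and -0.41 for Gm15083.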

How the data were processed

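RNA-seq of cerebellum from 24 mice was used. Per the labels and the study's methods, the authors used Trimmomatic 0.36 for trimming and STAR 2.7.2d for alignment to GRCm38.p6, and deposited the gene counts of STAR without normalization. The study's later ComBat-seq and DESeq2 1.28.1 steps are not in these counts. Rows for unassigned fragments (unmapped 4.02 to 5.36%, multimapping 3.22 to 5.79%, without a feature 5.23 to 12.0%, ambiguous 5.00 to 5.41%) and 1 further row that is not a mouse Ensembl gene (at most 7.42e-05% of gene counts) were left out. Of 54232 genes, 54165 matched GENCODE M21. Over 36 pairs of mice of 1 group, chi-square divided by its degrees of freedom was 8.67 to 219, above sampling noise.

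Batch was inferred, since the labels do not give it, by k-means (k of 2, 50 starts) on 4 mapping shares (mean silhouette 0.634). Column 2 counts were filtered to 22502 genes, scaled by TMM (factors 0.944 to 1.056) and tested with edgeR 4.0.16 in R 4.3.3, with genotype and batch in the quasi-likelihood fit. SE is the absolute log2 fold change divided by the square root of F. The interaction and the fold changes against WT of each batch come from this fit. Wilson intervals are at 95%. DESeq2 1.42.0, sva 3.50.0, other filters, columns 3 and 4, sex read from Xist (over 10 CPM), and leaving out each mouse were alternatives, and leaving out mice low in choroid plexus was chosen after seeing the data. The scripts were tested on simulated data.

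Named genes are the 3 members, genes that overlap them, the nearest tested gene on each side and called neighbors within 500 kb, and per member the 3 genes with the smallest root mean square difference. Members and lists were chosen with earlier results of these data known. P-values measure the spread between mice. Some cell type markers are not reported here.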

Additional observations from a re-analysis of the deposited data

How the results depend on the processing

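The 3 genes were called lower in SCA1 than in WT under every alternative run and without any 1 mouse. Over the alternatives the log2 fold changes were -1.69 to -1.35 for Gm15083, -2.15 to -1.77 for Gm39465 and -1.15 to -0.92 for 4930447F24Rik. The same mice chose the genes by this drop, so these calls follow from the choice and are a description. The number of the 3 genes called in SCA1 S776A against WT went from 1 to 0 without the batch covariate, with mice of 1 batch only, on column 3 counts and without the mice low in choroid plexus, and was 0 to 1 when 1 mouse was left out. For S776A double against WT it went from 1 to 0 without the batch covariate and without the mice low in choroid plexus, to 2 in DESeq2 and in ComBat-seq followed by DESeq2, and was 1 to 2 when 1 mouse was left out. For SCA1 S776A against SCA1 it went from 1 to 0 on column 4 counts and without the mice low in choroid plexus, to 2 in both DESeq2 fits, and was 0 to 2 when 1 mouse was left out. For S776A double against SCA1 it went from 0 to 1 with relative log expression scaling, with no filter on low counts and in both DESeq2 fits, and was 0 to 1 when 1 mouse was left out. The neighbors called in SCA1 went from 0 to 1 with no filter, on column 3, with sex as a covariate and in ComBat-seq followed by DESeq2, to 2 on column 4, and were 0 to 1 when 1 mouse was left out. The call on column 3 and 1 of those on column 4 were of Gm39464, whose strand columns hold fragments that may come from Gm39465. Signs turned only for differences near 0. S776A double against SCA1 S776A became 0.049 on column 4 and 0.00598 without the mice low in choroid plexus for Gm15083, and 0.043 without those mice for 4930447F24Rik. The interaction became 0.19 without the batch covariate, 0.000542 on column 4 and 0.29 without those mice for Gm39465 (-0.38 to 0.18 when 1 mouse was left out), and 0.15, 0.012 and 0.19 for 4930447F24Rik (-0.14 to 0.052). The cause of these changes was not tested. Leaving out the mice low in choroid plexus was chosen after seeing the data.

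No paired analysis was possible because the replicate numbers were given in accession order and pair no mice. With 4 mice a group, an inferred batch, 1 age and libraries without strand, small differences and the strand of origin cannot be resolved. The drop in SCA1 was measured on the mice that chose the genes, and no independent SCA1 mice were used here.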
